A study of Mus musculus with 14 samples.

Results

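MicroRNA levels of rejecting allogeneic heart transplants were set against those of normal mouse heart, for every microRNA assay detected in all arrays of either group. Of the 375 microRNA assays on the card, 241 met that rule: an assay counted as detected when its threshold cycle (Ct, the PCR cycle at which the signal passes a threshold) was under 35, on all 3 allogeneic arrays or on the normal array. The rule used detection and not the size of any difference. Of these, all but 27 were detected on all 4 arrays; of the 27, 13 were detected on the 3 allogeneic arrays and not the normal one, 6 on the normal array and no allogeneic one, and 8 on the normal array and some of the allogeneic ones.

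Allogeneic grafts were hearts of BALB/c mice placed heterotopically in C57BL/6 recipients, taken on day 7 and recorded in the labels as rejected. Normal hearts were untransplanted hearts of BALB/c mice, so the heart tissue of both groups is of the same strain, while cells that enter a graft come from the C57BL/6 recipient. A group of syngeneic grafts (C57BL/6 hearts in C57BL/6 recipients, day 7) is used beside them, and there the heart strain differs. All mice were 8 to 10 weeks old. Each array held RNA of 3 pooled animals (100 ng each, 300 ng in total), with 3 allogeneic pools, 3 syngeneic pools and 1 normal pool, so that n counts pools. Transplantation, rejection and the recipient's cells all separate the allogeneic group from the normal one and cannot be told apart in this comparison alone.

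A microRNA is a short RNA that pairs through its seed, bases 2 to 8, with messenger RNAs and lowers their translation and stability. Heart muscle makes a small set of muscle-restricted microRNAs, some of them from introns of myosin genes, whereas blood-derived cells make others such as miR-142 and miR-223. In a rejecting graft T cells and macrophages enter the muscle, and in bulk RNA the tissue's own microRNAs and those of the entering cells are read together.

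The mature sequences of the microRNAs that the comparison turns on are shown first, from RefSeq (GRCm38.p6), with the seed in capitals. RefSeq entries were matched for 159 of the 241 assays. The microRNAs made within cardiac myosin genes are shown because all 3 fell, and miR-208 and miR-208b share a seed.
miR-208: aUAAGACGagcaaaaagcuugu
miR-208b: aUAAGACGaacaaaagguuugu
miR-499: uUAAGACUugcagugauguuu

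Members of the miR-30 seed family are shown because each of those matched, including miR-384-5p of another locus, fell.
miR-30a: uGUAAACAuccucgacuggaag
miR-30c: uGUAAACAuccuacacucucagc
miR-30e: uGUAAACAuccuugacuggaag
miR-384-5p: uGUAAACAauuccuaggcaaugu

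The miR-183 cluster, made from neighbouring sites on the minus strand of chromosome 6, is shown because all 3 members were called higher, 2 of them as bounds. The mature sequences lie at chr6:30165962-30165986 (miR-182), chr6:30169506-30169528 (miR-96) and chr6:30169711-30169732 (miR-183). Their seeds are not identical, and each microRNA therefore forms a seed group of its own.
miR-182: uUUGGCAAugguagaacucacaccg
miR-96: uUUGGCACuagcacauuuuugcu
miR-183: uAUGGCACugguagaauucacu

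MicroRNAs of leukocytes and of immune activation that rose are shown next.
miR-142-3p: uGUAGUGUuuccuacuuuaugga
miR-142-5p: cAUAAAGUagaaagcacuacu
miR-223: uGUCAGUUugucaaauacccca
miR-155: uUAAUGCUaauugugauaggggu
miR-21: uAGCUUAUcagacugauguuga

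The family with the seed AGCAGCA is shown because it is the single seed family whose members were called in both directions.
miR-15b: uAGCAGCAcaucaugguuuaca
miR-16: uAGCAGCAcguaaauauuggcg
miR-195: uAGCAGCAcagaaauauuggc
miR-497: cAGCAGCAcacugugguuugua
miR-322: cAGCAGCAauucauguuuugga

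Levels are given in log2 units relative to the mean of 210 reference microRNA assays of the same array, so that a difference of 1 is a doubling, and levels of different assays are not compared with each other. Calls rest on a limma fit to the 7 heart arrays in 3 groups, with p-values adjusted over all assays tested (Benjamini-Hochberg) and a threshold of 0.05. The lone normal array was assumed to vary like the grafts. An exact permutation test of 3 arrays against 1 cannot go below p = 0.25. The labels do not say how the pools of animals were formed beyond their number, and the p-values measure the spread between pools.

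In rejecting hearts both arms of miR-142 and 4 of 5 immune activation assays rose against normal heart, and 6 of 7 cardiac muscle assays, both arms of miR-126 and both smooth muscle assays fell. Of the 241 assays 63 were called higher (26.1%) and 62 lower (25.7%), together 51.9%, and 62 of those rises and 61 of those falls were larger than 2-fold. The unadjusted p was under 0.05 for 149 assays. The median size of the called differences was 2.09 log2 units, beside a median SE of 0.42 and a median difference of -0.17 over all assays tested. All 3 allogeneic values lay on one side of the normal value in 216 assays (89.6%), 102 above and 114 below. Because the tissue was read whole, fewer cells of a type and less RNA per cell cannot be told apart.

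The balance of rises and falls depended on the scaling. Scaled to MammU6, a small nuclear RNA, 38 assays were called higher and 20 lower; scaled to snoRNA202, 79 and 29; and with quantiles, 46 and 75. The median over all assays shifted with them, by 0.22, 0.59 and -0.41 log2 units in that order. Under all 6 scalings 32 of the rises and 17 of the falls were called. Both counts include assays, such as miR-685 and miR-187, that were detected in no array of 1 group. Their calls under every scaling add no support, because they entered through the other group alone. The normal array had the fewest assays detected (228, against 239 to 250 for the allogeneic and 240 to 260 for the syngeneic arrays) and the latest mean reference Ct (23.9, against 23.1 to 23.5 and 22.4 to 23.8). It was also run alone on its day, so that run day and the normal group cannot be told apart. Relative to the microRNA reference, the controls stood at -0.22 (MammU6), 0.87 (snoRNA135), -0.59 (snoRNA202), 0.19 (U87) and -0.82 (Y1) in allogeneic against normal hearts; these were not tested.

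**Figure D1:**
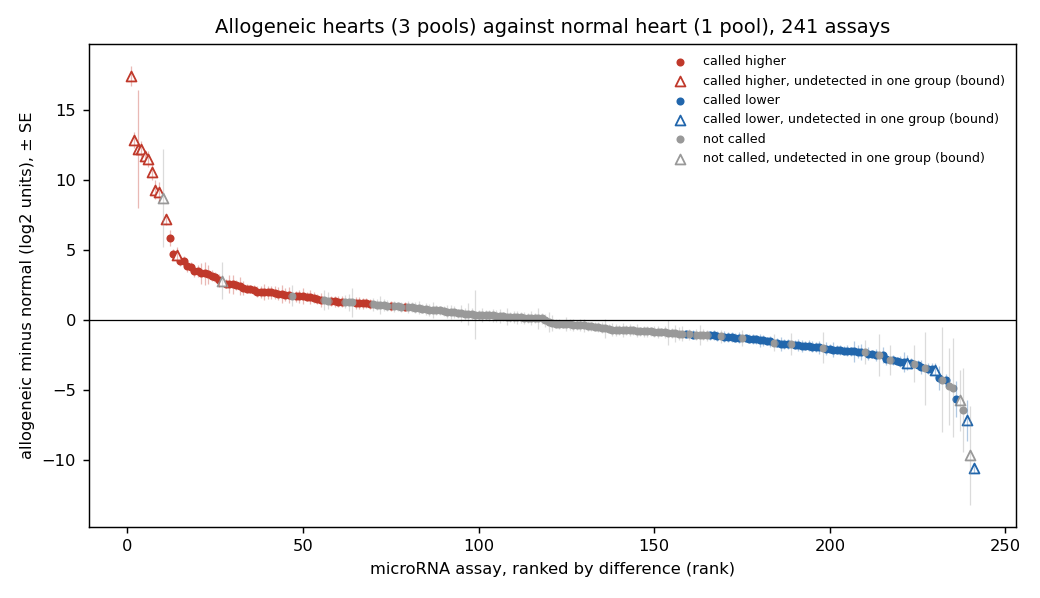
Each point is 1 of 241 assays, ranked on the x axis by the allogeneic minus normal difference (y axis, log2 units; bars, SE from the limma fit over 7 heart arrays); red and blue points were called higher (63) and lower (62), grey were not, and open triangles are bounds for assays detected in no array of one group. Most of the largest rises are such bounds, whereas the largest falls include both bounds and assays detected in both groups.

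Heart muscle microRNAs were lower in rejecting hearts. Of the 7 assays of the cardiac muscle list, all tested, 6 fell and 0 rose, with a median of -2.998 log2 units (all assays, -0.17), and the medians of the 3 pools were -2.96, -3.17 and -2.77. miR-1, which is made in heart and skeletal muscle and restrains growth and proliferation of muscle cells, stood at 5.22, 5.00 and 5.04 in the allogeneic pools and at 8.18 in the normal pool. The 3 rejecting pools were close together and far below normal heart, a difference of -3.09 ± 0.41 (SE, n = 3 pools and 1; 8.50-fold lower, adjusted p = 0.00135). A second assay on the card, named for rat miR-1, gave 5.03, 4.54 and 4.78 against 8.12, a difference of -3.34 ± 0.51 (adjusted p = 0.0026).

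miR-133a, co-transcribed with miR-1 in muscle, stood at 9.05, 8.95 and 9.14 against 11.91 in the normal pool (-2.87 ± 0.36, adjusted p = 0.00126). This is again a tight group below normal heart, although by quantiles, which give each array the same set of values, its difference was 0.00. miR-133b, of a separate locus, varied more between pools, with 5.81, 5.03 and 6.79 against 8.87 (-2.998 ± 0.71, 7.99-fold lower, adjusted p = 0.0145); it was not called by quantiles.

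The myosin-gene microRNAs fell too. miR-208, which lies in an intron of the alpha myosin heavy chain gene Myh6, stood at -3.67, -2.75 and -3.48 against -0.51 (-2.79 ± 0.42, adjusted p = 0.00243). miR-499, which lies in Myh7b, stood at -0.12, -0.45 and 0.16 against 3.06 (-3.19 ± 0.36, 9.14-fold lower, adjusted p = 8.43e-04). miR-208b, of the fetal and stress-induced gene Myh7, stood at -6.81, -6.01 and -5.93 against -3.86 (-2.39 ± 0.48, adjusted p = 0.00832). None of the allogeneic values of these assays reached the normal one, but miR-208b was not called when scaled to MammU6 or snoRNA202. miR-490, the remaining member, was undetermined in allogeneic pool 2 and stood at -2.81 and -2.06 in the others against -0.79 (-4.81 ± 3.51, adjusted p = 0.264). Scaled to MammU6 or snoRNA202, 5 of the 7 assays were called lower, and by quantiles 4.

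Syngeneic grafts, set against the same normal array, had a cardiac muscle median of -1.21, and those 2 comparisons share that array. The allogeneic arrays were lower than the syngeneic arrays in 5 of the 7 (adjusted p under 0.05), where the heart strain also differed: miR-208b by -2.29 (adjusted p = 0.00477), miR-133b by -1.79, miR-133a by -1.67, miR-1 by -1.53 and miR-208 by -1.48. miR-499 and miR-1 were also called lower in syngeneic grafts than in normal heart (-2.45, adjusted p = 0.0036, and -1.56, adjusted p = 0.0389). The allogeneic minus syngeneic difference of miR-499 was -0.74 (adjusted p = 0.0599).

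The miR-30 microRNAs, which many tissues make and heart muscle makes in large amounts, fell in all 5 of its assays (0 rose, median -2.03). miR-30b stood at 6.21, 6.11 and 5.75 against 8.25 (-2.22 ± 0.33, adjusted p = 0.00243), and miR-30c at 6.45, 6.27 and 5.52 against 8.25 (-2.17 ± 0.42). miR-30e (-2.03 ± 0.30), miR-30a (-1.73 ± 0.35) and miR-30d (-1.38 ± 0.31) followed, and in each of the 5 assays the normal value lay above every allogeneic one. miR-384-5p, which has the same seed, stood at -8.05, -7.90 and -7.49 against -3.53 (-4.28 ± 0.43, 19.4-fold lower, adjusted p = 4.71e-04). Scaled to MammU6, 0 of the 5 miR-30 assays were called (median -1.81), and miR-384-5p was.

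Of the endothelial assays 2 of 4 fell, both arms of miR-126. miR-126-3p, an endothelial microRNA of the Egfl7 gene that supports vessel integrity, stood at 7.22, 6.53 and 7.01 against 9.89 (-2.97 ± 0.39, 7.83-fold lower, adjusted p = 0.00133). Its other arm, miR-126-5p, stood at 4.22, 4.12 and 4.10 against 6.56 (-2.42 ± 0.28, adjusted p = 8.60e-04). Both arms were called under all 6 scalings. The other 2 endothelial assays, miR-10a (0.44 ± 0.42) and miR-10b (-0.94 ± 0.59), were not called, and the median of the 4 was -1.68.

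Of the smooth muscle assays, which mark contractile cells of the vessel wall, both fell (median -1.73). miR-145 stood at 6.12, 5.46 and 5.82 against 7.89 (-2.09 ± 0.34, adjusted p = 0.00332) and miR-143 at 2.99, 3.13 and 2.54 against 4.25 (-1.36 ± 0.36). Neither was called when scaled to MammU6.

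Of the 2 fibroblast-linked assays 1 was called lower. miR-199a-3p stood at 1.53, 1.65 and 2.22 against 2.97 (-1.17 ± 0.41, adjusted p = 0.0487) and was called under 2 of 6 scalings; without allogeneic pool 1 (-1.04) or pool 2 (-1.10), or any 1 syngeneic pool, it was not called. miR-214 was not called (-0.59 ± 0.69). Both were lower in allogeneic than in syngeneic grafts, by -1.94 and -1.85 (adjusted p = 0.00477 and 0.0299). In the miR-29 family, which targets collagens, miR-29c (-1.81 ± 0.43) and miR-29a (-0.98 ± 0.30) fell and miR-29b did not pass (-0.26 ± 0.37). miR-29a was not called without allogeneic pool 3 or any 1 syngeneic pool, and by quantiles it stood at 0.22. Scaled to MammU6 or snoRNA202, 0 of the 3 were called. The family median against normal heart was -0.98 in allogeneic and -0.77 in syngeneic grafts, and 0 of the 3 were called between the grafts.

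**Figure D2:**
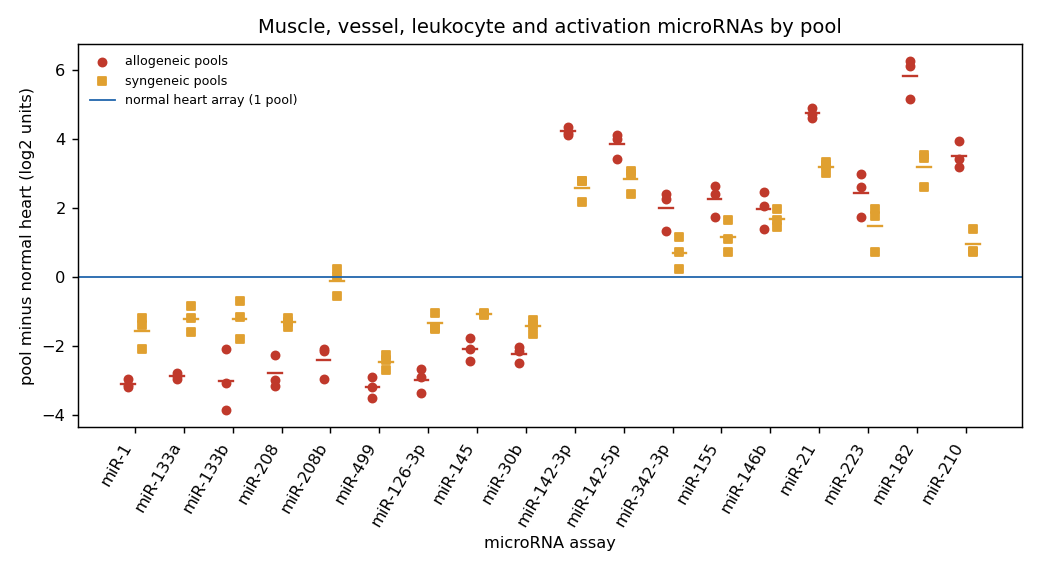
Points are single pools (red circles, 3 allogeneic; orange squares, 3 syngeneic) as differences from the normal heart array, the blue line at 0, in log2 units; short bars are means of 3 pools. The allogeneic pools lie below 0 for the muscle, vessel and miR-30b assays on the left and above 0 for the leukocyte, activation and hypoxia assays on the right, for example at -3.09 on average for miR-1 and 4.23 for miR-142-3p.

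Both arms of miR-142, which is made throughout the blood lineages and hardly outside them, rose. miR-142-3p stood at 6.99, 6.74 and 6.81 against 2.62 (4.23 ± 0.35, 18.7-fold higher, adjusted p = 2.12e-04). miR-142-5p stood at 0.01, -0.67 and -0.09 against -4.10 (3.86 ± 0.42, 14.5-fold higher, adjusted p = 7.38e-04). The pools did not approach the normal value in either assay, and both arms were called under all 6 scalings. The median of the 2 arms was 4.04 above normal heart in allogeneic grafts and 2.71 above it in syngeneic grafts. Both arms were higher in allogeneic than in syngeneic grafts (median difference 1.33, limma adjusted p under 0.05 for each). The authors' deposited table gives miR-142-3p relative quantities of 24.9, 26.2 and 34.6 in the allogeneic pools with normal heart at 1, scaled there to snoRNA202.

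Both myeloid assays were called higher, 1 of them as a bound. miR-223, of granulocytes and monocytes, stood at 6.67, 5.81 and 7.07 against 4.06 (2.46 ± 0.65, 5.48-fold higher, adjusted p = 0.0199); without allogeneic pool 1 it was 2.38 and not called. miR-147, which is induced in macrophages through Toll-like receptors, had a Ct of 23.9, 23.2 and 24.2 in the allogeneic pools and was undetermined on the normal array, a rise of at least 10.60 log2 units. Its SE and p, like those of every bound below, hold no variation of the undetected side. Against normal heart, the median of the 2 myeloid assays, 1 of them a bound, was 6.53 in allogeneic and 4.20 in syngeneic grafts. Of the 2, 1 was called higher in allogeneic than in syngeneic grafts.

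Of 5 lymphocyte assays tested, 2 rose and 0 fell, with a median of -0.72. Of the 2 rises, miR-342-5p is a bound that entered through the allogeneic side alone. Among the 4 assays detected on all 4 arrays 1 was called higher, near the 26.1% called higher over all assays. The number of falls depended on scaling. By quantiles, or with the reference median in place of its mean, 2 of the 5 were called lower, as also without allogeneic pool 2. miR-342-3p stood at 5.45, 4.53 and 5.61 against 3.18 (2.01 ± 0.54, adjusted p = 0.0216); without allogeneic pool 1 it was 1.89 and not called. miR-342-5p had a Ct of 23.03, 23.36 and 22.26 and was undetermined in normal heart, a rise of at least 11.50. miR-150, high in mature resting B and T cells and lowered on their activation, stood at 5.44, 5.67 and 5.27 against 6.25 (-0.78 ± 0.31, adjusted p = 0.069). miR-181a (-0.72 ± 0.31) and miR-181c (-0.85 ± 0.44), of thymocytes and other tissues, were not called either.

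Of the immune activation assays 4 of 5 rose and 0 fell (median 1.98). The called number was 3 when scaled to MammU6 or to the median of the reference assays, and 5 with snoRNA202 or by quantiles. In syngeneic grafts, set against the same normal array, their median was 1.29. Of the 5, 1 was called higher in allogeneic than in syngeneic grafts. miR-21, induced in activated T cells, macrophages and injured heart alike, stood at 8.29, 8.10 and 7.999 against 3.37 (4.76 ± 0.30, 27.1-fold higher, adjusted p = 4.79e-05). miR-155, made from the Bic transcript in activated lymphocytes and macrophages, stood at 4.56, 3.67 and 4.34 against 1.92 (2.27 ± 0.50, 4.82-fold higher, adjusted p = 0.0115). All 3 pools lay above normal heart for both assays, and both were called under all 6 scalings.

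miR-146b, induced by NF-kB, stood at 3.49, 2.81 and 3.90 against 1.42 (1.98 ± 0.47, limma adjusted p = 0.0144), and miR-132 at 2.95, 3.46 and 2.86 against 1.89 (1.20 ± 0.35). Of these, miR-132 was called under 3 of 6 scalings and was not called without syngeneic pool 2. miR-146a, which has the seed of miR-146b, stood at 6.62, 5.54 and 6.07 against 4.76 and missed the threshold (1.32 ± 0.46, adjusted p = 0.0503). Syngeneic grafts stood 1.70 above normal heart for miR-146b (adjusted p = 0.0482) and 1.16 for miR-155 (adjusted p = 0.135). The allogeneic minus syngeneic differences were 1.55 for miR-21 (adjusted p = 0.00459), 1.10 for miR-155 (0.0534), 0.28 for miR-146b (0.539) and 0.03 for miR-146a (0.958).

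All 3 members of the miR-183 cluster were called higher, 2 of them as bounds; it is a cluster known from sensory neurons and, for miR-182, from activated T cells. miR-182 stood at 0.51, 0.64 and -0.46 against -5.62 (5.85 ± 0.56, 57.6-fold higher, adjusted p = 4.22e-04). miR-183 had a Ct of 24.6, 25.4 and 25.8 and miR-96 of 27.3, 27.2 and 27.1, and both were undetermined in normal heart. Their rises were at least 571-fold (9.16 ± 0.69) and at least 148-fold (7.21 ± 0.39). Both entered the comparison through the allogeneic side alone, which largely fixes their direction, so that miR-182 is the member measured in both groups. miR-182 was called under all 6 scalings. So were the 2 bounds, which adds no support because of how they entered. The 3 were also higher in allogeneic than in syngeneic grafts, by 2.64, 2.45 and 3.40 (limma adjusted p = 0.00477, 0.0124 and 6.77e-04 for miR-182, miR-183 and miR-96). There too miR-183 and miR-96 had entered through the allogeneic side.

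**Figure D3:**
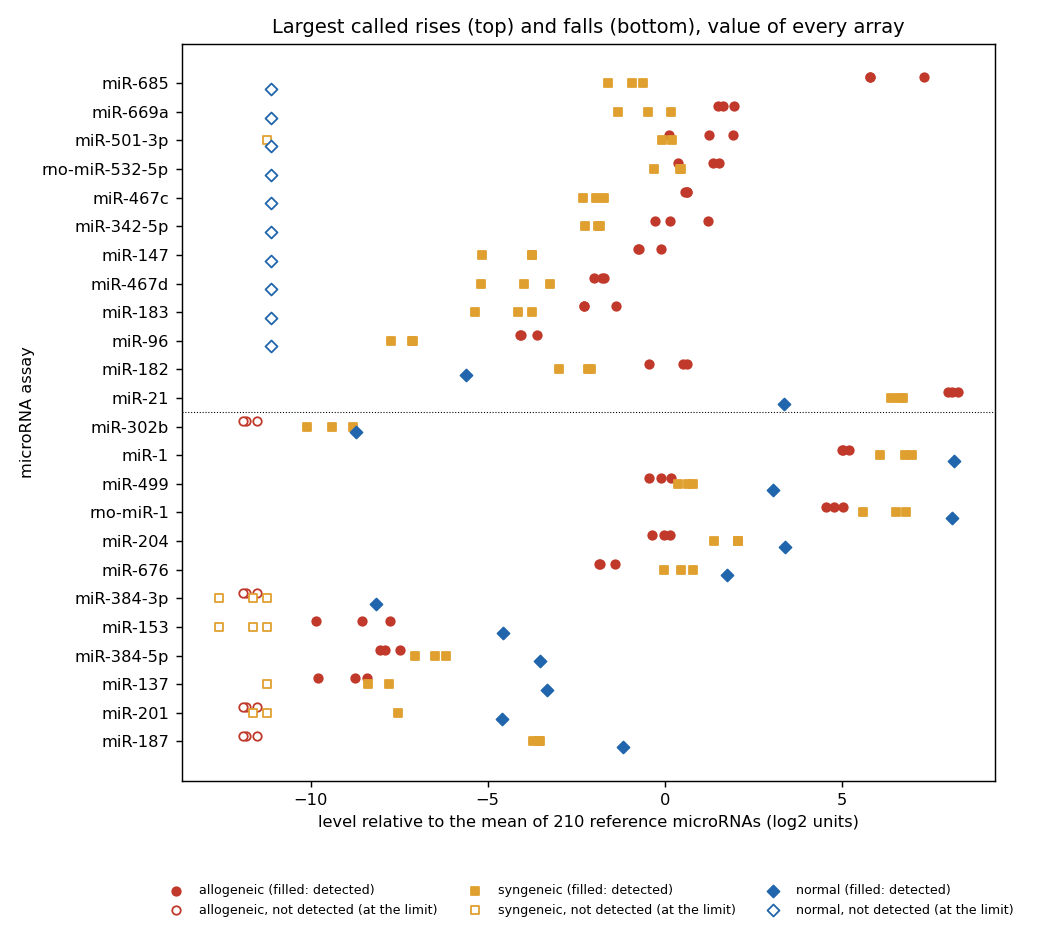
Levels (x axis, log2 units relative to the mean of 210 reference microRNAs) of the 12 largest called rises (above the dotted line) and the 12 largest called falls (below it); red circles are the 3 allogeneic pools, orange squares the 3 syngeneic pools and blue diamonds the normal pool, and open symbols were not detected and lie at that array's limit. For 10 of the 12 rises the normal array is at its limit, while miR-182 and miR-21 were measured in every array.

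miR-685 had the highest bound. Its Ct was 17.4, 15.8 and 17.7 in the allogeneic pools, 23.01, 24.97 and 24.68 in the syngeneic pools and undetermined on the normal array, so that it was at least 17.44 log2 units higher than in normal heart. It was also 7.35 log2 units higher than in syngeneic grafts (limma adjusted p = 3.15e-04), although it had entered through the allogeneic side alone. Both kinds of graft gave a value in every pool, and the early cycles of the allogeneic pools do not overlap those of the syngeneic ones.

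The cluster within an intron of Sfmbt2, a mouse cluster of many related microRNAs, had 6 assays tested. It held 3 assays detected on all 4 arrays, and all 3 rose (median 3.79). miR-467a stood at 1.36, 1.29 and 0.73 against -3.12 (4.24 ± 0.39, 18.96-fold higher, adjusted p = 3.73e-04). miR-467b (3.79 ± 0.37) and miR-467e (2.84 ± 0.47) were also measured in both groups. miR-669a had Ct 21.2, 21.6 and 21.8, miR-467c 22.6, 22.5 and 22.9, and miR-467d 24.97, 24.81 and 25.48, each undetermined in normal heart, with rises of at least 12.83, 11.74 and 9.30; these entered through the allogeneic side alone, which largely fixes their direction. The 3 assays measured in both groups were called under each of the 6 scalings. So were the 3 bounds, which adds no support because of how they entered. All 6 were higher in allogeneic than in syngeneic grafts (limma adjusted p under 0.05), and there too those 3 had entered through the allogeneic side. Against normal heart the median of the 6, with the bounds, was 6.77 in allogeneic and 4.50 in syngeneic grafts. Members of this cluster are close in sequence, and assays of such members can share signal.

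An undetermined well on the lone normal array has no second array to check it, and the card offers a direct comparison for miR-532-5p. The rat-named assay gave Ct 21.84, 22.72 and 21.97 in the allogeneic pools and was undetermined in normal heart. Set to the detection limit, that well gave a rise of at least 12.21, which counts among the 63 called rises and those called under all 6 scalings. The mouse-named assay for the same microRNA gave Ct 21.07, 21.66 and 21.50 in those pools and 22.95 in normal heart, a difference of 0.93 ± 0.36 that was not called (adjusted p = 0.0682). The assays thus disagree on the normal array and were both detected in all allogeneic pools; what they differ in by sequence is not given in the sources used here.

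The 13 assays detected in all allogeneic pools and not in normal heart entered through the allogeneic side, so that how many of them were called supports nothing and is given as a description (11). miR-501-3p was at least 12.24 higher with an SE of 4.20; 1 of the 3 syngeneic wells was undetermined, and the call was lost when any 1 of the 3 allogeneic pools was left out (bounds of 11.83 to 12.72). miR-329 was at least 4.65 higher. miR-682 (at least 8.75 ± 3.49) and miR-295 (at least 2.83 ± 1.33) were not called.

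Proliferation-linked microRNAs were partly higher. Of 11 assays of the miR-17 to miR-92a cluster and its paralogues, which MYC induces in dividing cells, 5 rose and 0 fell (median 1.13). miR-18a stood at 0.93, 0.28 and 0.01 against -3.10 (3.51 ± 0.46, 11.4-fold higher, adjusted p = 0.00133) and was called under all 6 scalings. miR-106b (1.70 ± 0.58), miR-19a (1.49 ± 0.37), miR-19b (1.15 ± 0.33) and miR-92a (1.04 ± 0.36) were the others. Of these, miR-106b, miR-19b and miR-92a each lost the call when 1 of several pools was left out, at 1.38, 1.07 and 0.88 at the lowest. The called number was 1 when scaled to MammU6, 10 to snoRNA202 and 2 to the median of the reference assays. The remaining 6 assays, among them miR-17 (1.09) and miR-20a (0.98), lay between 0.80 and 1.40.

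miR-222 and miR-221, which share a seed and repress the cell cycle inhibitor p27, both rose. miR-222 stood at 5.57, 4.82 and 5.55 against 3.27 (2.04 ± 0.44, adjusted p = 0.0105) and miR-221 at 2.52, 2.26 and 1.96 against 0.90 (1.35 ± 0.40, adjusted p = 0.0308); miR-221 was not called without allogeneic pool 1 (1.21) or syngeneic pool 2 (1.35).

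miR-210, the microRNA most regularly induced by hypoxia, stood at 5.33, 5.84 and 5.10 against 1.91 (3.52 ± 0.43, 11.5-fold higher, adjusted p = 0.00117). Syngeneic grafts stood 0.96 above normal heart (adjusted p = 0.151), and the allogeneic minus syngeneic difference was 2.55 (adjusted p = 0.00341). miR-7a and miR-7b, which share a seed, rose by 3.07 ± 0.35 and 3.35 ± 0.75 (adjusted p = 8.73e-04 and 0.0119). miR-7a stood at -2.34, -2.76 and -2.93 against -5.75, and miR-7b was more spread, at -2.97, -3.73 and -1.60 against -6.12.

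In the miR-34 family, whose miR-34a is a target of p53, 3 of 4 rose and 0 fell (median 1.76). miR-34a stood at 1.25, 1.19 and 0.90 against -1.12 (2.24 ± 0.30, adjusted p = 0.00155), close to the syngeneic difference of 2.32; the difference between the grafts was -0.09 ± 0.21 and was not called. miR-34c rose by 3.26 ± 0.69. miR-34b-3p rose by 0.96 ± 0.32 and stood 1.97 above normal in syngeneic grafts, so that it was higher than normal but lower than in syngeneic grafts (-1.005, adjusted p = 0.0194). It was not called without allogeneic pool 2 (0.85) or pool 3 (0.95), or without any 1 of the syngeneic pools (0.96).

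Of the imprinted Dlk1-Dio3 cluster on chromosome 12, 26 assays were tested, 13 rose and 0 fell (median 1.21), beside a median of 1.23 in syngeneic grafts against the same normal array. miR-543 (2.26 ± 0.35), miR-544 (2.04 ± 0.38), miR-409-3p (1.96 ± 0.46) and miR-495 (1.68 ± 0.33) were among the calls. Without allogeneic pool 3 or syngeneic pool 2, 8 were called. The count also depended on scaling, with 4 calls when scaled to MammU6 and, by quantiles, 3 higher and 2 lower with a median of -0.07. Against syngeneic grafts 0 of the 26 were higher and 2 lower, miR-136 (-1.59) and miR-434-3p (-1.01).

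The seed family AGCAGCA divided. miR-15b stood at 3.30, 3.34 and 2.31 against 1.10 (1.89 ± 0.48, adjusted p = 0.0173), whereas miR-195 stood at 2.79, 3.14 and 2.57 against 4.54 (-1.71 ± 0.34, adjusted p = 0.00818). miR-497, of the same cluster as miR-195, fell by 1.78 on the log2 scale, and miR-322, which is made beside miR-503, fell by 1.70. miR-16 (0.49 ± 0.30) and miR-15a (0.58 ± 0.44) were not called. Thus 1 member rose and 3 fell, although none of the 4 was called when scaled to MammU6, and the 3 falls were not called when scaled to snoRNA202.

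Other seed families with every member called went one way. miR-19a and miR-19b rose, while miR-26a (-1.61 ± 0.34) and miR-26b (-1.08 ± 0.32), and miR-192 (-1.81 ± 0.33) and miR-215 (-2.46 ± 0.42), fell. Of 23 seed families with at least 2 matched assays, 16 held a call and 7 were called in all members in one direction. Over all 241 assays 51.9% were called, so that many families of 2 or more would hold a call at that share. The family counts are a description and were not tested. The let-7 family, which is abundant in differentiated tissue, had 2 of 8 lower and 0 higher (median -0.82): let-7b (-1.45 ± 0.40, from 2 allogeneic pools because 1 well was left out) and let-7g (-1.24 ± 0.32). That share is about the 25.7% called lower over all assays. No let-7 assay was called when scaled to MammU6 or snoRNA202 (median -0.23) or with the allogeneic and normal arrays alone in the fit, and let-7b was not called without allogeneic pool 3 (-1.14) or syngeneic pool 2.

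**Figure D4:**
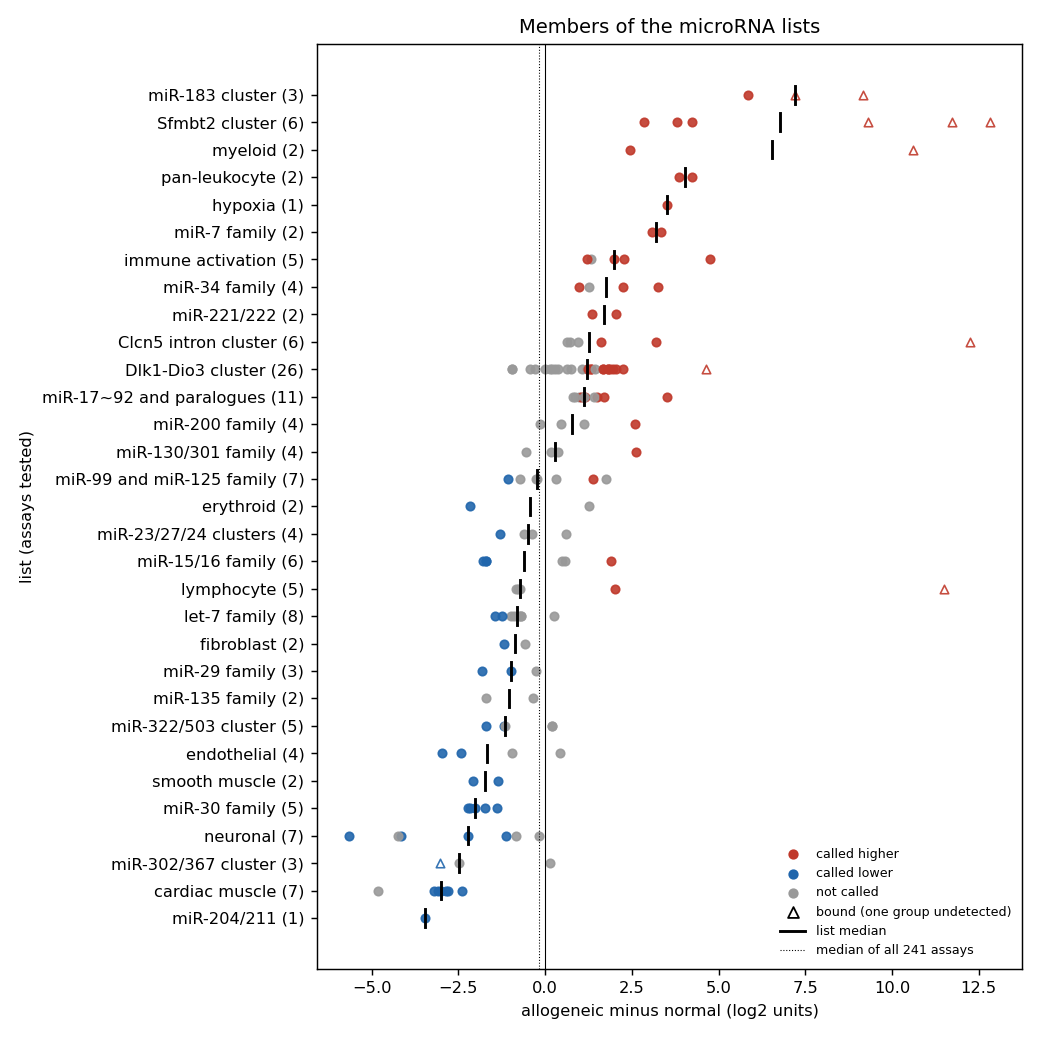
Each row is a list, with the number of assays tested in brackets; points are single assays at their allogeneic minus normal difference (x axis, log2 units), red when called higher, blue when called lower and grey when not called, open triangles are bounds, thick bars are list medians and the dotted line is the median of all 241 assays (-0.17). The miR-183, Sfmbt2 and leukocyte lists lie on the right and the cardiac muscle, miR-30 and smooth muscle lists on the left, while the lymphocyte list and the list of miR-15a and miR-16 hold members on both sides.

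Among the largest falls were microRNAs detected in normal heart and in no allogeneic pool, which entered through the normal array alone, so that their direction too is largely fixed. miR-187 had a Ct of 25.04 in the normal pool and 25.96, 27.09 and 27.29 in the syngeneic pools, and was undetermined in all 3 allogeneic pools, so that it was at least 1524-fold lower than in normal heart. miR-201 (Ct 28.47 in normal heart) stood at -7.14 as a bound in allogeneic against normal hearts, and miR-384-3p (32.03) and miR-302b (32.59) were at least 11.99-fold and 8.14-fold lower. For miR-302b the allogeneic wells gave Ct 36.3, 37.0 and 35.5, beyond the limit. miR-504 (Ct 25.96) and miR-881 (29.90) were also undetermined in the 3 allogeneic pools but were not called (adjusted p = 0.0578 and 0.0629), and each was detected in 1 of 3 syngeneic pools.

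Several falls concerned microRNAs best known from nerve and endocrine cells, 4 of the 7 neuronal assays (median -2.24), beside 25.7% called lower over all assays. In syngeneic grafts, set against the same normal array, the median was -1.53. Against syngeneic grafts 0 of the 7 were called lower and 1 higher (median difference -0.12). miR-137 stood at -9.79, -8.42 and -8.76 against -3.33 (-5.66 ± 1.29, 50.4-fold lower, adjusted p = 0.0122). miR-153 stood at -7.76, -9.86 and -8.55 against -4.57 (-4.15 ± 0.85, adjusted p = 0.00875), and it was undetermined in all 3 syngeneic pools, whose difference from normal heart was -7.25 as a bound. miR-153 was the one fall that was called higher in allogeneic than in syngeneic grafts, by at least 3.10, a bound whose p holds no variation of the syngeneic side. miR-9 (-2.24 ± 0.46) and miR-218 (-1.12 ± 0.35) were the others; miR-218 was not called without allogeneic pool 1 (-0.97) or pool 3 (-1.12), or any 1 syngeneic pool. Scaled to MammU6 or snoRNA202, 2 of the 7 were called. Each value in normal heart rests on 1 well.

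miR-204, of the Trpm3 gene, stood at -0.02, 0.15 and -0.36 against 3.39 (-3.46 ± 0.40, 11.03-fold lower, adjusted p = 8.73e-04) and was called under all 6 scalings. miR-676 stood at -1.85, -1.83 and -1.41 against 1.77 (-3.46 ± 0.40), and miR-486, made in red cell precursors and muscle, at -3.07, -2.88 and -3.16 against -0.87 (-2.17 ± 0.34). For miR-451, the other red cell assay, the pools at 4.14, 4.82 and 3.56 lay above normal heart at 2.91 without passing (1.27 ± 1.01, adjusted p = 0.303), and syngeneic pools at 1.59, -1.20 and 0.17 lay below it.

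The remaining lists stand beside 26.1% called higher and 25.7% called lower over all assays. A count of 1 of 4 is near those shares. The cluster of miR-322 and miR-503 had 2 of 5 lower (miR-322 and miR-542-5p, -1.18 ± 0.36; median -1.15). None of the 5 was called when scaled to MammU6 or snoRNA202 (median -0.56), and miR-542-5p was not called without allogeneic pool 1 (-1.13) or pool 2 (-1.15), or syngeneic pool 2 or 3. The cluster of miR-302b and miR-367 had 1 of 3 lower (median -2.47). That call, miR-302b, is a bound that entered through the normal array alone. Limited to assays detected on all 4 arrays, the cluster had 1 assay tested and 0 called. The miR-200 family, of epithelia, had 1 of 4 higher (miR-141, 2.58 ± 0.64, list median 0.78). The family of miR-130b and miR-301a had 1 of 4 higher (miR-130b, 2.61 ± 0.34, list median 0.27). The Clcn5 intron cluster had 3 of 6 higher (median 1.27): miR-500 (3.18 ± 0.41), miR-362-3p (1.61 ± 0.40) and miR-501-3p. Of these, miR-501-3p is a bound that entered through the allogeneic side alone. Limited to assays detected on all 4 arrays, 2 of 5 were called higher (median 0.93). The miR-99 and miR-125 lists had 1 higher (miR-125a-3p, 1.38 ± 0.34) and 1 lower (miR-125b-5p, -1.08 ± 0.36) of 7; miR-125b-5p was not called without allogeneic pool 1 (-0.93) or pool 3 (-1.03), or any 1 syngeneic pool. The miR-23/27/24 clusters had 1 of 4 lower (miR-23b, -1.31 ± 0.29). The medians of these 2 lists, -0.25 and -0.48, turned positive when scaled to snoRNA202 (0.35 and 0.11), the latter also by quantiles (0.01). The miR-135 family had 0 of 2 called. The count of the Clcn5 intron cluster depended on scaling, with 2 of 6 called higher when scaled to MammU6, 6 to snoRNA202 and 1 by quantiles.

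**Figure D5:**
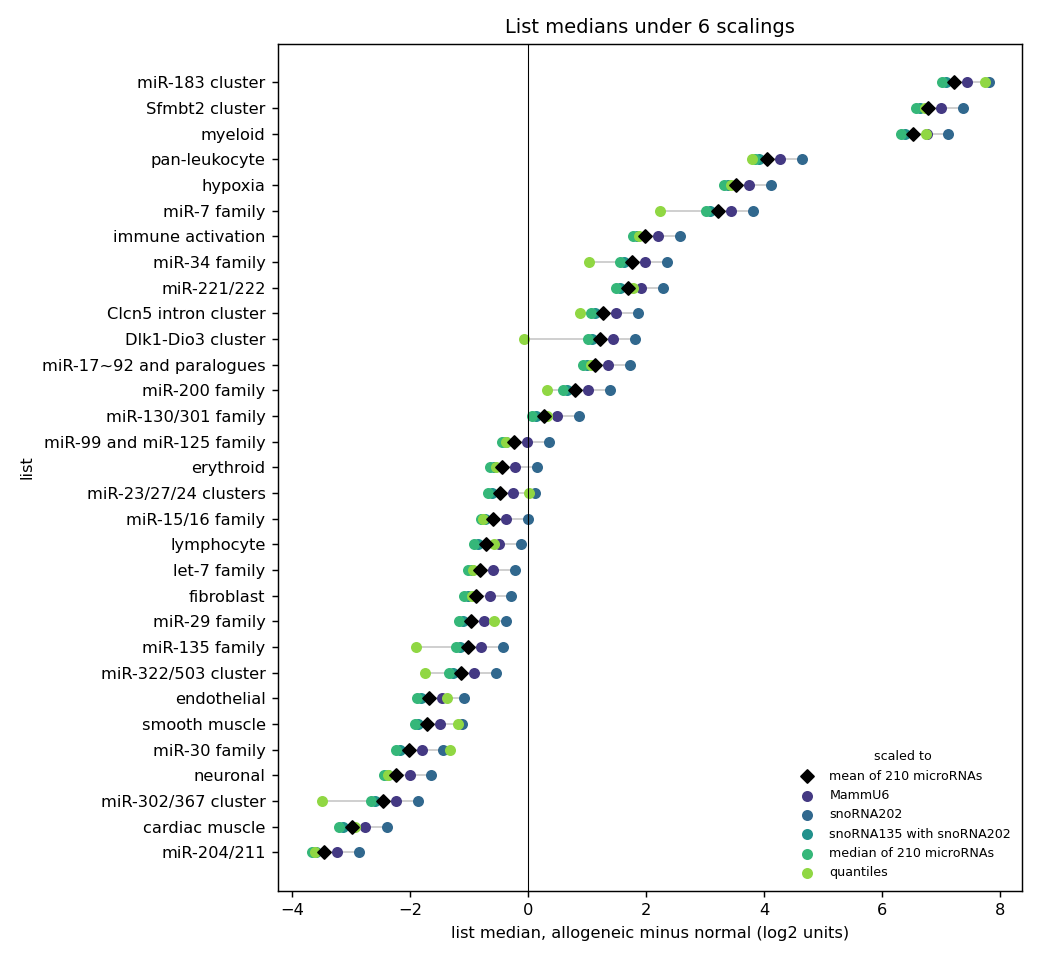
The median allogeneic minus normal difference of each list (x axis, log2 units) under 6 scalings: black diamonds, the mean of 210 reference microRNAs; coloured circles, MammU6, snoRNA202, snoRNA135 with snoRNA202, the median of the 210 and quantiles. The leukocyte and miR-183 lists stay above 0 and the cardiac muscle, endothelial and miR-30 lists below it under all 6, whereas the Dlk1-Dio3 cluster moves from 1.21 to -0.07 by quantiles, and the erythroid, miR-99 with miR-125, and miR-23/27/24 medians turn positive with snoRNA202, the last also by quantiles. The miR-183 list holds bounds, and its median is one of them.

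Graft-infiltrating lymphocytes of allogeneic grafts on day 5, a readout the rule did not use, were measured on a separate table of arrays, and only detection is given here. On all 3 of those arrays 64.7% of the 241 assays were detected, beside 61.9% of the rises (39 of 63) and 61.3% of the falls (38 of 62). The shares of rises and falls were thus near each other and near that of all assays. On the 1 array of normal blood mononuclear cells 76.3% of the 241 were detected, with 48 of the 63 rises and 45 of the 62 falls. miR-142-3p, miR-155, miR-21, miR-223, miR-182 and miR-210 were detected on 3 of 3. Among the cardiac muscle assays miR-1, miR-133a and miR-133b were detected on 3 of 3 as well, miR-208 and miR-499 on 2, and miR-208b and miR-490 on 0.

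Beside the syngeneic grafts, 48 assays (19.9%) were called between syngeneic and normal hearts and 77 (32% of 241) between allogeneic and syngeneic hearts in the same fit. Of the 63 rises against normal heart, 33 were also called higher than in syngeneic grafts and 1, miR-34b-3p, lower. Of the 62 falls, 28 were also called lower than in syngeneic grafts and 1, miR-153, higher. The allogeneic arrays enter both of these comparisons, and the heart strain differs in the second. In syngeneic grafts against normal heart, 26 of the 63 rises and 18 of the 62 falls were also called in the same direction. That comparison shares the normal array, and the heart strain differs there too.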

How the data were processed

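TaqMan rodent microRNA array cards (384 wells; 375 microRNA assays, 335 mouse-named and 40 rat-named, and 6 controls) were read by real-time PCR. Per the labels, RNA was isolated with a mirVana kit, pooled, reverse transcribed with Megaplex primers and preamplified. Ct values were exported by the authors from SDS 2.4, per the file headers; baseline and threshold settings are not given in the sources used here. The authors also deposited delta Ct values (log2 scale, a higher value meaning less RNA), which equalled each Ct less the snoRNA202 Ct of its array within 5e-04, and relative quantities, each a ratio with normal heart at 1.

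Levels were recomputed from Ct: wells undetermined or at 35 or later were set to 35, the mean Ct of the 210 microRNA assays detected on all 7 heart arrays was subtracted, and the sign was turned. A fold against a group detected on no array is a lower bound ("at least"). The let-7b well of allogeneic pool 2, deposited under another sample name, was left out. Differences were estimated with limma (version 3.58.1; R version 4.3.3), by lmFit and eBayes over 3 groups with 4 residual degrees of freedom and two-sided tests, with Benjamini-Hochberg adjustment over 241 assays; the procedure was tested on simulated data. Arrays give no counts, and their number limits the precision.

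The members and the 31 lists were chosen with earlier results of these data known. Named were the 12 largest called rises and falls with all allogeneic values on one side of the normal one, assays detected in all arrays of one group and none of the other, tested list members, any assay called against both normal and syngeneic hearts for which the 2 kinds of graft lay on opposite sides of normal heart, and the controls; assays named outside these (miR-26a, miR-26b, miR-192, miR-215 and the rat-named or other assays of a seed or pair) were chosen after their values were seen. Other scalings, detection limits, filters, fits and left-out pools were tried.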

Additional observations from a re-analysis of the deposited data

Results flagged for a closer look

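Both results below were marked because the allogeneic and the syngeneic grafts differ from each other while lying on opposite sides of the same normal array. This holds for levels relative to the mean of the reference microRNAs. miR-135a was detected on all 7 heart arrays: it stood at -5.22, -5.70 and -5.35 in the allogeneic pools, at -5.08 in normal heart and at -2.73, -2.31 and -2.04 in the syngeneic pools. The allogeneic minus syngeneic difference was -3.06 (limma adjusted p = 7.49e-04), with syngeneic grafts 2.72 above normal heart and allogeneic grafts at -0.34, which was not called. With snoRNA202 scaling the allogeneic minus normal difference of miR-135a was 0.25, so that its side of normal heart depended on the scaling.

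miR-199a-3p stood at 1.53, 1.65 and 2.22 in the allogeneic pools, at 2.97 in normal heart and at 3.98, 3.39 and 3.85 in the syngeneic pools. The allogeneic minus syngeneic difference was -1.94 (limma adjusted p = 0.00477), with allogeneic grafts at -1.17 and syngeneic grafts at 0.77 against normal heart; the syngeneic value was not called. The strain of the heart differs between the 2 kinds of graft, and its part was not tested.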

How the results depend on the processing

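The 63 rises and 62 falls were within 1.5 times of these counts under the other settings, except when scaled to MammU6 (38 and 20) and, for falls, to snoRNA202 (29); the cause was not tested. Leaving out 1 pool at a time gave 51 to 62 rises and 52 to 69 falls. Of 93 named calls, 42 were lost under none of the 21 alternatives in which they were fitted, and 7 were lost under 11 to 14. An assay that a setting left unfitted counted as not lost there. This covers every bound when detection on all 4 arrays was required, so for bounds the count is less of a check. By quantiles only, miR-133a went to 0.00 and 5 changed sign: miR-29a (0.22), miR-369-3p (-1.62), miR-369-5p (-0.65), miR-381 (-0.35) and miR-544 (-0.65). Between 9 and 17 named calls were lost on leaving out 1 pool, the 17 without syngeneic pool 2. Lost under several were miR-19b, miR-29a, miR-34b-3p, miR-92a, miR-106b, miR-125b-5p, miR-199a-3p, miR-218, miR-501-3p and miR-542-5p. The Dlk1-Dio3 calls miR-337-5p, miR-369-3p, miR-369-5p, miR-382 and miR-434-5p were lost under several as well. Replicate numbers did not pair the pools (correlations of same-numbered deviations -0.13, -0.19 and -0.02); the random replicate block gave 62 rises and 61 falls. A comparison within the run day of the normal array was not possible, because that day held no allogeneic array. Run day as a random block gave 64 and 62. A reference of 213 assays detected on all 4 arrays, chosen after seeing the data, gave 65 and 60.

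Limits are the single normal pool, whose spread is assumed, and bounds for 19 assays undetected in one group.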
